A study of Mus musculus with 8 samples.

Results

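RNA of the genes for the NFAT, SP and RREB1 transcription factors was examined in mouse embryonic stem cells (ESCs) with and without Importin-13 (IPO13), a transport receptor that carries proteins both into and out of the nucleus. The set holds 9 genes out of the 23420 gene symbols in the deposited count tables, and was chosen by name: *Nfatc1*, *Nfatc2*, *Nfatc3*, *Nfatc4* and *Nfat5*, *Sp1*, *Sp3* and *Sp4*, and *Rreb1*. The study linked NFATC2 (also called NFAT1), SP1 and RREB1 to IPO13 through motifs in regions with promoter and enhancer marks. It also used published binding data for NFAT1 and SP1 and silenced the factors to follow target RNA. For SP1 it further reported binding to IPO13, nuclear export that depended on IPO13, and less cell death after silencing. The remaining 6 genes encode paralogs of these factors. The choice is by name and applies no measured value of its own, but it was made with earlier results of these data known, and the motifs were searched by the study in genes that responded in these libraries. All 9 genes passed the filter of at least 1 count in any library.

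The data comprise 8 RNA-seq libraries in 4 groups of 2. IPO13+/+ ESCs (labelled WT) were either left untreated (WT-NS) or exposed to 125 µM H2O2 for 1 h and returned to clean medium for 2 h (WT-ST), and IPO13-/- ESCs (labelled KO) were left untreated (KO-NS) or exposed in the same way (KO-ST). All cells came from blastocysts of a 129 x C57BL/6 background and were grown without feeders in medium with LIF, the cytokine that keeps mouse ESCs undifferentiated. How many lines or clones of each genotype were sequenced, and whether the libraries of a group came from separate cultures, is not given in the sources used here, so p-values measure the spread between these libraries and a difference between genotypes cannot be told apart from a difference between lines.

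NFATC1 to NFATC4 are held in the cytoplasm in phosphorylated form, and calcium acting through the phosphatase calcineurin releases them to the nucleus, a pathway best known from activated T cells. NFAT5 lacks the calcineurin docking region and drives the response to high salt. SP1, SP3 and SP4 are zinc finger proteins that bind GC boxes in many promoters, and RREB1 is a large zinc finger protein that acts downstream of RAS signalling. NFATC1 to NFATC4 are thus regulated to a large extent by where the protein is in the cell, and the study reported that H2O2 made SP1 protein less nuclear. RNA counts do not show where a protein is.

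Between 60397877 and 73789079 reads were counted on genes per library, so that 3 counts, taken as the smallest number told from 0, stand for 0.0407 to 0.0497 CPM, the count scaled to the total of its library. *Ipo13* was read at 68.3 to 72.4 CPM in the 4 IPO13+/+ libraries and at 24.9 to 25.9 CPM in the 4 IPO13-/- libraries, 2.72-fold lower without treatment, and its RNA was therefore lower but not absent. All 8 ESC markers searched were detected in every group, with a summed level of 7028 to 7506 CPM in IPO13+/+ and 6123 to 6278 CPM in IPO13-/- libraries. Summed markers of fibroblasts, primitive endoderm, trophectoderm and T lymphocytes stayed at or below 23.9 CPM, and the part of these differences in the results was not tested. The WT-NS libraries differed most from each other, with a chi-square per gene of 15.0 against 2.27 to 6.59 in the other groups. In bulk RNA, fewer cells that express a gene and less RNA per cell cannot be told apart.

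The promoters of these genes hold letters that the factors themselves are known to bind. RefSeq promoter windows on GRCm38.p6, from 250 bases before to 50 bases after an annotated start, were found for 8 of the 9 genes and gave 14 windows. GGGCGG, the core of the GC box read by SP factors, was found on either strand in 10 windows belonging to 8 genes, against 35.7% of 32851 mouse windows. GGAAAA, the core of NFAT sites, was found in 5 windows of 4 genes against 23.4% of all windows, and CCACCCC, a C-rich box with letters of the RREB1 consensus, in 2 windows of 2 genes against 15.1%. The 10 windows with GGGCGG consisted of G and C to 58.7% to 78.7%, and the mouse windows were not matched for this content. A match is a description of letters and shows no binding. The windows of *Sp1*, *Nfatc2* and *Nfatc4* and 2 of the 4 windows of *Rreb1* are printed 5' to 3' on the strand of the gene, because these genes carry the largest changes or were the factors the study tested. Capitals mark the 3 motifs in either orientation.

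The *Sp1* window (chr15:102406066-102406365, plus strand) holds 4 GC box cores before the start and 1 NFAT core after it.
Sp1: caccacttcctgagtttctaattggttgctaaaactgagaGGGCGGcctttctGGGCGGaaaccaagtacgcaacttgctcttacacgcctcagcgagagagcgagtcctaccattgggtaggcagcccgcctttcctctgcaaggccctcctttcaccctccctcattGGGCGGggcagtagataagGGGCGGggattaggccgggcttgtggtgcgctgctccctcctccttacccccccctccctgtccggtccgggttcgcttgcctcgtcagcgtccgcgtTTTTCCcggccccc
The *Nfatc2* windows (chr2:168590316-168590615 and chr2:168601608-168601907, minus strand) belong to separate starts, and the first holds 4 GC box cores within 66 bases of its start while the second holds none of the 3 motifs.
Nfatc2 window 1: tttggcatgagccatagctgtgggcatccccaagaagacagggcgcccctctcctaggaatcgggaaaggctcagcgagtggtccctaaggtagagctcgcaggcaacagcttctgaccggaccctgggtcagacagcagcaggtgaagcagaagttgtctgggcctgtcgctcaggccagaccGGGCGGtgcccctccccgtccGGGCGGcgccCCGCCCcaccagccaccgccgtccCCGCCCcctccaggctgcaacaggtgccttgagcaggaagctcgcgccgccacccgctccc
Nfatc2 window 2: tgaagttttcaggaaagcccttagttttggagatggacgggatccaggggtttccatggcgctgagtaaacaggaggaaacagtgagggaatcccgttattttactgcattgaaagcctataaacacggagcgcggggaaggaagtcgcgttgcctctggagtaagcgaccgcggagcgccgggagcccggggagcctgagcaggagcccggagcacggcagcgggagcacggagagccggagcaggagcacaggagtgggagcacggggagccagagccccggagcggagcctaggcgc
The *Nfatc4* window (chr14:55824545-55824844, plus strand) holds all 3 motifs, with 1 GC box core, 2 NFAT cores and 2 C-rich boxes.
Nfatc4: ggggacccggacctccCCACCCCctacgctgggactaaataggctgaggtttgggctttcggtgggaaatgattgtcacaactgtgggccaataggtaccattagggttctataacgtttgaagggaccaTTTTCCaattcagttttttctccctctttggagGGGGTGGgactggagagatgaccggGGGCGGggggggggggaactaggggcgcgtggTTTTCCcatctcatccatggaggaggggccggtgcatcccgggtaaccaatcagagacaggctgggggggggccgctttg
The *Rreb1* gene has 4 windows, of which the first and the last, not printed, hold 1 GC box core and 1 NFAT core respectively, the second (chr13:37826662-37826961, plus strand) holds 1 GC box core and the third (chr13:37888184-37888483, plus strand) 2 NFAT cores.
Rreb1 window 2: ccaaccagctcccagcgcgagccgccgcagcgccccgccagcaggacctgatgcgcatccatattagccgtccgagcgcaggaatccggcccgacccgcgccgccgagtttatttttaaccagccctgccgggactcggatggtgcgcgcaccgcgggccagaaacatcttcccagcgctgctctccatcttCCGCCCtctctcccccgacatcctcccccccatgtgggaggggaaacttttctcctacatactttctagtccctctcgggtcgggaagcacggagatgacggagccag
Rreb1 window 3: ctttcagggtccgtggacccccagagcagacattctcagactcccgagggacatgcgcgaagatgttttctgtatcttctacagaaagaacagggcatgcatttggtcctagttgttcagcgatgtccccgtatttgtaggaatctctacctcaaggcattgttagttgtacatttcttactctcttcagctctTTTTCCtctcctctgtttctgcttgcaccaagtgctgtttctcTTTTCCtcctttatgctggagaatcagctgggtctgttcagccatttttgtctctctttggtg

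The 9 genes were expressed over a wide range of levels. Divided by the annotated exon length, *Sp1* was highest at a mean of 35.9 CPM per kb over the 8 libraries (range 33.6 to 40.6) and *Sp3* followed at 31.4 CPM per kb (27.8 to 34.1), so that their ranges overlapped. *Nfatc3* stood well below both at 8.13 CPM per kb (7.19 to 9.37) and above *Nfat5* at 4.58 CPM per kb (4.18 to 5.16). *Rreb1* (3.23 CPM per kb), *Nfatc4* (3.08), *Nfatc2* (1.73) and *Sp4* (1.15) came next, each with a range that overlapped that of its neighbour. Because *Nfatc4* differed between the groups, the order of these means was not that of each group, and *Nfatc4* was 4th of the 9 in WT-NS (5.31 CPM per kb, above *Nfat5* at 4.58) and 7th in KO-ST (1.25, below *Nfatc2* at 1.98). *Nfatc1*, best known as the NFAT of T cells and osteoclasts, was lowest at 0.347 CPM per kb (0.270 to 0.452). With the longest transcript as length in place of all exons, *Rreb1* and *Nfatc4* changed places in the means over all libraries, and *Sp3* stood above *Sp1* in KO-NS (39.8 against 37.7 CPM per kb) and KO-ST (38.9 against 36.9). With the longest coding length *Sp1* (118.6 to 143.1 CPM per kb) and *Sp3* (58.4 to 71.7) did not overlap. These levels depend on exons shared with other genes, since *Nfatc3* overlaps *Esrp2* on the opposite strand by 219 bases and whether the counting used strand is not given in the sources used here.

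**Figure D1:**
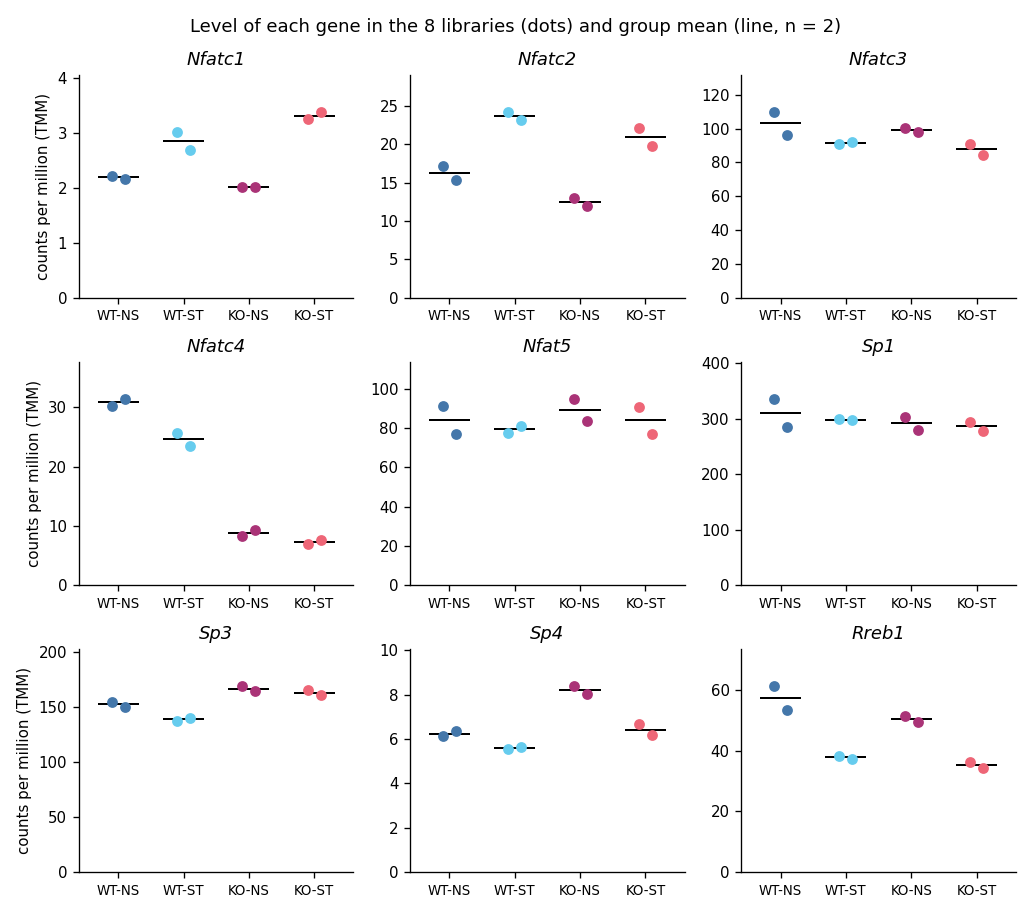
CPM after TMM scaling (y axis, from 0) of each of the 9 genes in the 4 groups (x axis), with a dot per library and a line at the mean of 2 libraries. The 4 IPO13-/- libraries lie far below the 4 IPO13+/+ libraries for Nfatc4, and the treated libraries lie above the untreated ones for Nfatc1 and Nfatc2 and below them for Rreb1.

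The first comparison asked which of the factors differed in RNA between the genotypes. *Nfatc4* was the gene that differed most. The gene lies on chromosome 14 (55823144 to 55833943, plus strand, GRCm38) and encodes an NFAT that is prominent in heart, muscle and nervous system. Its TMM-scaled level was 30.3 and 31.4 CPM in WT-NS, 25.6 and 23.5 CPM in WT-ST, 8.35 and 9.33 CPM in KO-NS, and 6.95 and 7.53 CPM in KO-ST. Every IPO13-/- library lay below every IPO13+/+ library, with or without H2O2. Without treatment the level was 3.50-fold lower in IPO13-/- cells (log2 fold change -1.81, SE 0.07, adjusted p = 3.52e-18 by edgeR's quasi-likelihood test with Benjamini-Hochberg adjustment), and after H2O2 it was 3.39-fold lower (log2 fold change -1.76, SE 0.07, adjusted p = 2.81e-17). Of the 12198 genes with a mean of at least 1 CPM, 29 fell further without treatment and 28 after H2O2. Both calls held under all 16 alternatives to the analysis, with log2 fold changes from -1.88 to -1.70.

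*Nfatc4* was not alone in its part of the chromosome. This was seen after the values were known and is given as a description. Of the 8 other genes with a mean of at least 1 CPM that lie within 100 kb of *Nfatc4*, 6 were lower in IPO13-/- cells without treatment and 6 after H2O2, and none was higher. Of all tested genes, 19.4% were lower without treatment and 17.5% after H2O2. These shares include every gene counted at least once, so they are not a like background for genes with at least 1 CPM. With filterByExpr 48.1% and 46.8% of genes were called in either direction, against 38.2% and 36.6% of all tested genes. *Nynrin*, the nearest of the 8 neighbours at 20.1 kb, was counted at 275 and 251 CPM in WT-NS, 224 and 221 CPM in WT-ST, 66.4 and 68.7 CPM in KO-NS, and 67.9 and 60.9 CPM in KO-ST. It therefore differed by about as much as *Nfatc4*, with log2 fold changes of -1.96 without treatment and -1.79 after H2O2. The other 5 genes, *Ripk3*, *Ltb4r1*, *Ltb4r2*, *Khnyn* and *Sdr39u1*, had log2 fold changes between -0.90 and -0.57 without treatment and between -0.66 and -0.29 after H2O2. The least counted of them lost calls, *Ltb4r1* untreated without WT-NS replicate 1 (-0.72) and *Ltb4r2* untreated without KO-NS replicate 1 (-0.60). The *Ltb4r2* call after H2O2 was lost with limma-voom (-0.28), with DESeq2 (-0.30), in the fit of the 4 libraries compared (-0.29) and without WT-ST replicate 1, either KO-NS library or either KO-ST library (-0.32 to -0.15). Farther away, within 500 kb, 14 of 25 genes were lower and 3 higher without treatment. The gene *Gm5801*, 177 kb from *Nfatc4*, went the other way, with 17, 24, 17 and 27 counts in the IPO13+/+ libraries and 837, 713, 725 and 726 counts in the IPO13-/- libraries, and whether its reads are shared with copies elsewhere was not examined. A difference between the lines in this region cannot be told apart from the genotype. Neighbours of other members also leaned to 1 side. Within 100 kb of *Nfat5* 3 of 3 such genes were lower in both comparisons (median log2 fold changes -0.32 and -0.22). Near *Nfatc3* 5 of 8 were lower and 1 higher without treatment (median -0.15, against -0.61 near *Nfatc4*). Within 500 kb of *Sp3* 5 of 6 were higher.

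**Figure D2:**
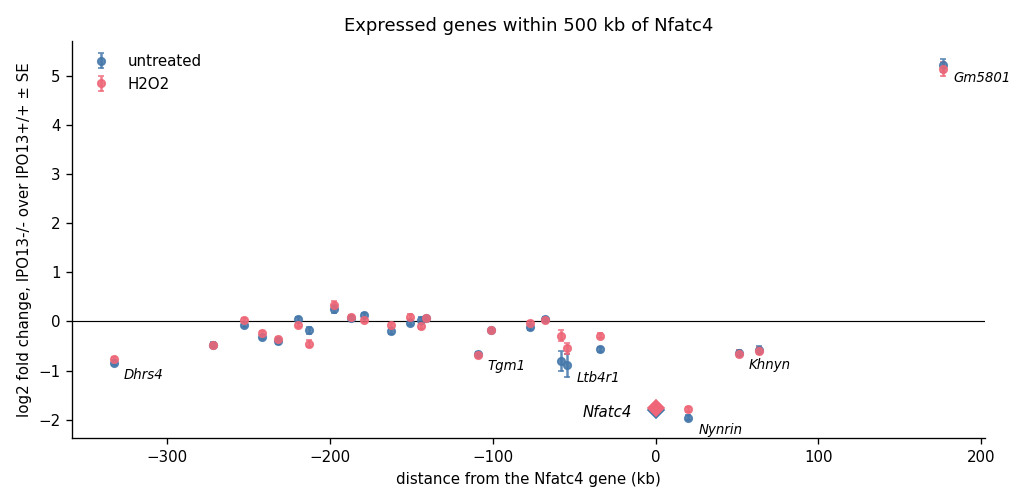
Log2 fold change of IPO13-/- over IPO13+/+ cells with its SE (y axis) for the 25 genes within 500 kb of Nfatc4 with a mean of at least 1 CPM, against the distance from Nfatc4 in kb (x axis, 0 at the gene, drawn as a diamond). Nynrin at 20.1 kb fell with Nfatc4, and Gm5801 at 177 kb rose.

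The other genes of the NFAT family had smaller differences between the genotypes. *Nfatc2* on chromosome 2 (168476410 to 168601657, minus strand), the factor the study silenced, was at 17.2 and 15.3 CPM in WT-NS and at 13.0 and 12.0 CPM in KO-NS. It was 1.30-fold lower in untreated IPO13-/- cells (log2 fold change -0.38, SE 0.07, adjusted p = 7.30e-05 by edgeR). After H2O2 it was at 24.2 and 23.2 CPM in WT-ST against 22.1 and 19.8 CPM in KO-ST. The libraries did not overlap there either, but the fold change was smaller (log2 fold change -0.18, SE 0.06, adjusted p = 0.0288 by edgeR), and this call was lost with limma-voom, with DESeq2 and without any of 5 single libraries (both WT-ST, both KO-NS and KO-ST replicate 2), with log2 fold changes from -0.26 to -0.10 as each library was left out. *Nfatc1*, *Nfatc3* and *Nfat5* did not pass in either comparison, with log2 fold changes between -0.12 and 0.22. Without WT-NS replicate 2, *Nfatc3* passed as lower in untreated IPO13-/- cells (log2 fold change -0.15), and without WT-NS replicate 1, *Nfat5* passed as higher (0.22).

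Among the SP genes, *Sp3* and *Sp4* were higher in untreated IPO13-/- cells. *Sp4*, a factor known mainly from neurons, was at 6.13 and 6.35 CPM in WT-NS and at 8.37 and 8.01 CPM in KO-NS. This was 1.31-fold higher (log2 fold change 0.39, SE 0.07, adjusted p = 0.000104 by edgeR). After H2O2 it was at 5.56 and 5.66 CPM in WT-ST and 6.66 and 6.16 CPM in KO-ST, a log2 fold change of 0.19 (SE 0.08) that did not pass (adjusted p = 0.0590 by edgeR) and passed in 4 of 16 alternatives. *Sp3*, which competes with SP1 for GC boxes, was at 154 and 150.1 CPM in WT-NS against 168 and 164 CPM in KO-NS, and at 137 and 140 CPM in WT-ST against 165 and 160.4 CPM in KO-ST. The levels were close but did not overlap, with log2 fold changes of 0.13 (SE 0.04, adjusted p = 0.0124 by edgeR) without treatment and 0.23 (SE 0.04, adjusted p = 3.43e-05) after H2O2. The first was lost without KO-NS replicate 1 (log2 fold change 0.13), and the second held in all 16 alternatives.

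*Sp1* itself on chromosome 15 (102406143 to 102436404, plus strand) was at 335 and 286 CPM in WT-NS, 299.7 and 297 CPM in WT-ST, 304 and 280.4 CPM in KO-NS, and 295 and 278 CPM in KO-ST. The 2 WT-NS libraries lay farther apart than those of any other group, and the highest of them was the highest of all 8. No comparison of *Sp1* passed, with log2 fold changes of -0.09 (SE 0.05) between the genotypes without treatment, -0.06 (SE 0.05) between them after H2O2, -0.06 (SE 0.05) after H2O2 in IPO13+/+ and -0.03 (SE 0.05) after H2O2 in IPO13-/- cells. The first and the third of these passed, at -0.20 and -0.17, when WT-NS replicate 2 was left out, and neither passed when WT-NS replicate 1 was left out, at 0.03 and 0.06.

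*Rreb1* on chromosome 13 (37778400 to 37952005, plus strand) was at 61.2 and 53.5 CPM in WT-NS and at 51.5 and 49.4 CPM in KO-NS. This was a 1.14-fold lower level (log2 fold change -0.18, SE 0.05, adjusted p = 0.00700 by edgeR), and the call was lost with library totals in place of TMM factors and without WT-NS replicate 1 or either KO-NS library, with log2 fold changes from -0.28 to -0.08 as each library was left out. After H2O2 the genotypes did not pass, with a log2 fold change of -0.10 (SE 0.06).

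In all, 2 of the 9 genes were higher and 3 lower in untreated IPO13-/- cells, where 18.7% of the 19424 tested genes were higher and 19.4% lower. After H2O2 1 of the 9 was higher and 2 were lower, against 19.1% and 17.5% of all genes. With the 2-fold rule of the study only *Nfatc4* remained in either comparison, against 4.71% and 4.56% of all genes. Read against the background, counts of this size among 9 genes do not set the family apart, and what stands out is the size of the *Nfatc4* difference. The median log2 fold change of the 9 genes was -0.09 without treatment and -0.06 after H2O2, beside medians of -0.02 and 0.00 over genes with at least 1 CPM. Libraries of the genotypes did not overlap for 6 of the 9 genes without treatment and for 7 after H2O2. The same held for 74.6% and 78.1% of the genes with at least 1 CPM, so a lack of overlap alone sets none of the 9 apart.

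**Figure D3:**
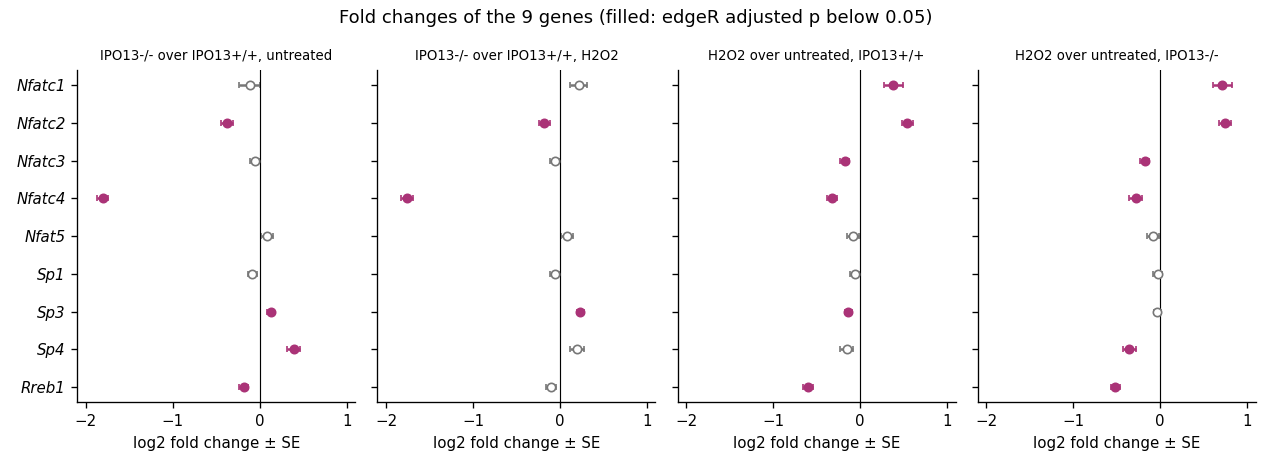
Log2 fold change with its SE (x axis) of each of the 9 genes (y axis) in the 4 comparisons, with filled symbols for an edgeR adjusted p below 0.05. Nfatc4 stands at -1.81 and -1.76 between the genotypes, and after H2O2 Nfatc1 and Nfatc2 lie to the right and Rreb1 to the left in both genotypes.

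The second comparison asked how the RNA of the factors responded to oxidative stress in each genotype. *Nfatc2* and *Nfatc1* rose, and *Rreb1*, *Nfatc4* and *Nfatc3* fell, in both genotypes. *Nfatc2* rose 1.46-fold in IPO13+/+ cells (log2 fold change 0.54, SE 0.06, adjusted p = 2.20e-07 by edgeR) and 1.67-fold in IPO13-/- cells (log2 fold change 0.74, SE 0.07, adjusted p = 1.37e-09). All treated libraries lay above all untreated libraries of either genotype, the lowest treated being 19.8 CPM and the highest untreated 17.2 CPM. The rise passed in all 16 alternatives in both genotypes. *Nfatc1* on chromosome 18 was at 2.22 and 2.16 CPM in WT-NS, 3.01 and 2.69 CPM in WT-ST, 2.02 and 2.01 CPM in KO-NS, and 3.24 and 3.38 CPM in KO-ST, from between 125 and 210 counts per library. It rose in IPO13+/+ cells, by 0.38 on the log2 scale (SE 0.11, adjusted p = 0.0100 by edgeR), and in IPO13-/- cells by 0.71 (SE 0.11, adjusted p = 9.98e-06). The rise in IPO13+/+ cells was lost with DESeq2, without WT-NS replicate 2 (0.36) and without WT-ST replicate 1 (0.30), and the rise in IPO13-/- cells passed in all 16 alternatives. Of the 12198 genes, 576 rose further than *Nfatc2* in IPO13+/+ and 436 in IPO13-/- cells.

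*Rreb1* fell from 61.2 and 53.5 CPM to 38.4 and 37.3 CPM in IPO13+/+ cells, and from 51.5 and 49.4 CPM to 36.2 and 34.4 CPM in IPO13-/- cells. The untreated and treated libraries did not overlap in either genotype. The fall was 1.52-fold in IPO13+/+ (log2 fold change -0.60, SE 0.05, adjusted p = 1.56e-09 by edgeR) and 1.43-fold in IPO13-/- cells (log2 fold change -0.52, SE 0.06, adjusted p = 2.79e-08), and it passed in all 16 alternatives. Only 80 of the 12198 genes fell further in IPO13+/+ cells, and 293 did in IPO13-/- cells. *Nfatc4*, although it was already low in IPO13-/- cells, fell in both genotypes by a like amount, with log2 fold changes of -0.33 (SE 0.06, adjusted p = 8.91e-05 by edgeR) and -0.28 (SE 0.08, adjusted p = 0.00643). The second of these was lost without KO-NS replicate 2 (-0.19) or KO-ST replicate 1 (-0.21).

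The rest of the genes moved less. *Nfatc3* was at 110 and 96.5 CPM in WT-NS, 90.6 and 92.0 CPM in WT-ST, 100.2 and 98.1 CPM in KO-NS, and 91.1 and 84.4 CPM in KO-ST. It fell by a log2 fold change of -0.18 with each genotype (SE 0.05, adjusted p = 0.0108 by edgeR in IPO13+/+, and SE 0.05, adjusted p = 0.00982 in IPO13-/- cells). The call in IPO13+/+ held in 8 of 16 alternatives. It was lost with library totals (-0.14), with filterByExpr (-0.15), in the fit of the 4 libraries compared (-0.15) and without WT-NS replicate 1 (-0.08), either WT-ST library (-0.17 and -0.19) or either KO-NS library (both -0.15). The call in IPO13-/- cells held in 13 and was lost without either KO-NS library (-0.16 and -0.17) or KO-ST replicate 2 (-0.11). *Sp4* fell in IPO13-/- cells (log2 fold change -0.35, SE 0.08, adjusted p = 0.000567 by edgeR) and in IPO13+/+ cells had a log2 fold change of -0.15 (SE 0.08) that did not pass. *Sp3* fell slightly in IPO13+/+ cells (log2 fold change -0.14, SE 0.04, adjusted p = 0.0125 by edgeR), a call held in 8 of 16 alternatives and lost without any 1 library other than the WT-NS libraries (-0.15 to -0.11). In IPO13-/- cells *Sp3* had a log2 fold change of -0.03 (SE 0.04). *Nfat5*, at 91.4 and 76.8 CPM in WT-NS, 77.7 and 80.9 CPM in WT-ST, 94.8 and 83.5 CPM in KO-NS, and 90.8 and 77.2 CPM in KO-ST, overlapped between the groups in every comparison and had log2 fold changes between -0.09 and 0.09. It passed as lower after H2O2 in IPO13+/+ cells only without WT-NS replicate 2 (-0.20).

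Of the 9 genes, 2 rose and 4 fell after H2O2 in IPO13+/+ cells, beside 11.5% and 13.8% of all tested genes. In IPO13-/- cells 2 rose and 4 fell as well, beside 14.9% and 14.4%. The share that fell was above these backgrounds in both genotypes, but they include every gene counted at least once. With filterByExpr 29% and 36.9% of genes were called in either direction, against 25.3% and 29.4% of all tested genes. The falls of *Nfatc3* and *Sp3* in IPO13+/+ cells were not stable under the alternatives. The difference from the background was not tested, and no excess is claimed for these genes. None passed the 2-fold rule in either genotype, which 2.90% and 2.89% of all genes passed. Libraries of the compared groups did not overlap for 7 of the 9 genes in IPO13+/+ cells and for 6 in IPO13-/- cells, against 68.2% and 73.1% of the genes with at least 1 CPM, so that a lack of overlap alone sets none of them apart. The WT-NS and KO-NS libraries enter both the genotype and the stress comparisons.

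Whether the stress responses differed between the genotypes was tested as an interaction, in which a positive value means a larger rise or smaller fall in IPO13-/- cells. None of the 9 genes passed with edgeR, limma-voom or DESeq2, while 2.01% of all tested genes had a positive and 0.705% a negative interaction. At an unadjusted p below 0.05 there were 2 of the 9, near the 15.0% of all tested genes. These were *Nfatc1* (0.33, SE 0.16, adjusted p = 0.305 by edgeR) and *Nfatc2* (0.20, SE 0.09, adjusted p = 0.310), both with the larger rise in IPO13-/- cells. The interaction of *Rreb1* was 0.08 (SE 0.08) and that of *Sp1* 0.03 (SE 0.08).

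The genotype and stress differences together changed the make-up of the families. Per kb of exon, *Nfatc4* made up 33.4% ± 2.51 (SD, n = 2) of the summed NFATC1 to NFATC4 level in WT-NS and 13.3% ± 1.13 in KO-NS. *Nfatc3* made up 55.2% ± 2.28 in WT-NS and 74.0% ± 0.635 in KO-NS, although its own level did not pass between them (log2 fold change -0.06). The size of all these shares depends on the length used. After H2O2 the share of *Nfatc2* was 15.3% ± 0.191 in WT-ST against 9.64% ± 0.283 in WT-NS, and 17.7% ± 0.655 in KO-ST against 10.3% ± 0.506 in KO-NS. *Nfatc3* was the largest of the 4 in every group. Per kb of exon, *Nfatc4* held a larger share than *Nfatc2* in WT-NS, WT-ST and KO-NS, but a smaller one in KO-ST (11.2% against 17.7%). This order depends on the length used. By the longest coding length *Nfatc4* was below *Nfatc2* in KO-NS too, at 3.27 against 4.49 CPM per kb. Not divided by length, *Nfatc4* counts were 1.76 and 2.05 times those of *Nfatc2* in WT-NS and 1.058 and 1.015 times in WT-ST. They were 0.643 and 0.777 times in KO-NS and 0.314 and 0.381 times in KO-ST. Within the SP genes the shares moved little, with *Sp1* at 54.0% ± 2.36 in WT-NS and 50.1% ± 0.979 in KO-NS, and *Sp4* at most 2.01% in any group. The ratio of *Nfatc2* to *Rreb1* counts separated treated from untreated libraries in both genotypes, at 0.281 and 0.287 in WT-NS, 0.252 and 0.243 in KO-NS, 0.631 and 0.621 in WT-ST, and 0.612 and 0.574 in KO-ST.

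**Figure D4:**
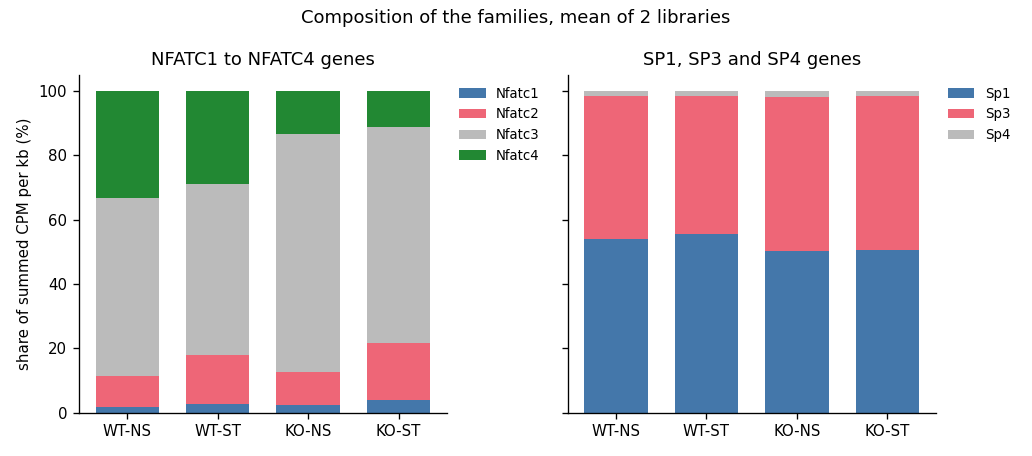
Share in percent of the summed CPM per kb of exon (y axis) held by each of the NFATC1 to NFATC4 genes (left) and of Sp1, Sp3 and Sp4 (right) in the 4 groups (x axis), as means of 2 libraries. The Nfatc4 share is 33.4% in WT-NS and 13.3% in KO-NS, and the Nfatc2 share is larger in the treated group of each genotype.

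Genes whose levels followed those of the silenced factors were ranked by Pearson's correlation over the 8 libraries, as a description, since the libraries share groups and scaling. *Nfatc2* was followed most closely by *Edc4* (0.998), *Gse1* (0.998) and *Smcr8* (0.997), *Rreb1* by *Epas1* (0.996), *Stt3b* (0.992) and *Twf1* (0.992), and *Sp1* by *Ep400* (0.988), *Rbbp6* (0.984) and *Tnks* (0.981).

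The regulators around the NFAT proteins were measured as well. Of the 8 calcineurin and calmodulin genes, 3 were higher and 2 lower in untreated IPO13-/- cells, against 18.7% and 19.4% of all tested genes, and 0 to 2 were lower under the alternatives. *Ppp3ca*, a catalytic subunit of calcineurin, was at 13.5 and 11.8 CPM in WT-NS and 18.3 and 16.0 CPM in KO-NS (log2 fold change 0.44, and 0.42 between the genotypes after H2O2), and *Ppp3cc*, another catalytic subunit, had a log2 fold change of 0.52 from 46 to 79 counts per library, a call that was lost with limma-voom, with DESeq2, without WT-NS replicate 2 (0.31) and without either KO-NS library (0.64 and 0.44). Of the 6 calcineurin inhibitors, 2 were higher and 2 lower in untreated IPO13-/- cells, against the same shares of all genes, and 1 to 2 were lower under the alternatives. *Rcan2* fell furthest among them, from 2.09 and 2.16 CPM in WT-NS to 0.990 and 0.805 CPM in KO-NS (log2 fold change -1.23), and was also lower in IPO13-/- cells after H2O2 (-0.71). *Akap5*, an anchoring protein of calcineurin, rose after H2O2 in both genotypes, with log2 fold changes of 1.02 in IPO13+/+ and 0.80 in IPO13-/- cells. *Rcan1*, a well-known target of NFAT that feeds back on calcineurin and which was singled out after its values were seen, rose after H2O2 in both genotypes, with log2 fold changes of 0.22 for IPO13+/+ and 0.37 for IPO13-/-.

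Store-operated calcium entry supplies the calcium for calcineurin. Of its 9 genes, 5 were higher and 2 lower in IPO13-/- than in IPO13+/+ cells after H2O2, against 19.1% and 17.5% of all tested genes. The median log2 fold change was 0.19, beside 0.00 over genes with at least 1 CPM, a level that *Itpr2* of this list did not reach. Under the alternatives 3 to 5 were higher and 1 to 2 lower. Without treatment 3 were higher and 2 lower, against 18.7% and 19.4%, and the median was 0.0005 beside -0.02. *Stim1*, the calcium sensor of the endoplasmic reticulum, was at 9.69 and 9.08 CPM in WT-NS and 14.0 and 13.5 CPM in KO-NS (log2 fold change 0.55, and 0.53 between the genotypes after H2O2). *Orai2*, a channel subunit, rose after H2O2 in IPO13-/- cells from 0.792 and 0.725 to 2.04 and 1.79 CPM (log2 fold change 1.33). It also rose in IPO13+/+ cells, to 2.63 and 2.68 CPM (log2 fold change 0.86), and the difference between these rises did not pass (interaction 0.47, adjusted p = 0.238 by edgeR). *Orai2* was lower in IPO13-/- cells in both comparisons of the genotypes (-0.94 and -0.47), the call after H2O2 being lost with DESeq2 (-0.48). *Itpr2*, a calcium release channel, was higher in IPO13-/- cells after H2O2 (log2 fold change 1.08) but rested on 10 to 29 counts per library in these groups, and the call was lost with limma-voom, with DESeq2, without either WT-ST library (1.35 and 0.84) and without KO-ST replicate 1 (0.73). Of the 5 kinases that phosphorylate NFAT, 2 were higher and 2 lower after H2O2 in IPO13-/- cells, against 14.9% and 14.4% of all tested genes, and 0 to 2 were higher and 1 to 2 lower under the alternatives. *Dyrk2* fell in both genotypes, with log2 fold changes of -0.50 in IPO13-/- and -0.33 in IPO13+/+ cells, the second lost in the fit of the 4 libraries compared (-0.30) and without WT-NS replicate 1 (-0.22) or WT-ST replicate 1 (-0.28). *Csnk1a1* was lower in untreated IPO13-/- cells (-0.34) and after H2O2 (-0.18). Its rise after H2O2 in IPO13-/- cells (0.11) was lost with library totals (0.08) and without any of 6 single libraries, all but the WT-NS libraries (0.11 to 0.12).

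Among the 6 tested genes known as osmotic targets of NFAT5, 3 rose and 1 fell after H2O2 in IPO13+/+ cells, against 11.5% and 13.8% of all tested genes, and 0 to 1 fell under the alternatives. In IPO13-/- cells 2 rose and 1 fell, against 14.9% and 14.4%, and 1 to 2 rose and 0 to 1 fell under the alternatives. *Slc5a3*, the myo-inositol transporter, was at 8.97 and 7.67 CPM in WT-NS and 12.7 and 14.2 CPM in WT-ST (log2 fold change 0.69). In IPO13-/- cells it also rose (0.34), a call lost without KO-NS replicate 2 (0.19). *Hspa1b*, a heat shock protein with a near-identical copy so that its counts are uncertain, went from 6.56 and 5.88 to 8.76 and 9.10 CPM in IPO13+/+ cells and from 5.65 and 5.23 to 4.40 and 4.61 CPM in IPO13-/- cells. Its changes were in opposite directions (log2 fold changes 0.52 and -0.28), the fall in IPO13-/- cells was lost with DESeq2 and without KO-NS replicate 1 or either KO-ST library (-0.30 to -0.21), and the interaction passed (-0.80, SE 0.12, adjusted p = 9.96e-05 by edgeR).

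The SP genes belong to a larger family with the KLF factors, of which 23 further genes were measured. Of these 4 were higher and 10 lower in untreated IPO13-/- cells, against 18.7% and 19.4% of all tested genes, with 0 to 6 higher and 5 to 10 lower under the alternatives. After H2O2 6 rose and 4 fell in IPO13+/+ cells, against 11.5% and 13.8%, while 7 rose and 3 fell when IPO13 was lacking, against 14.9% and 14.4%. Under the alternatives 5 to 6 rose and 3 to 7 fell in IPO13+/+, and 6 to 7 rose and 2 to 4 fell in IPO13-/- cells. *Sp9* was counted 9 and 7 times in WT-NS and 54 and 45 times in WT-ST (log2 fold change 2.61, SE 0.33), and 13 and 16 times in KO-NS and 31 and 41 times in KO-ST (log2 fold change 1.43, SE 0.31, a call lost without KO-NS replicate 1 at 1.14). The difference between these responses did not pass (interaction -1.18, adjusted p = 0.241 by edgeR). *Sp6* rose in both genotypes alike (log2 fold changes 0.90 and 0.93). *Klf6* rose more in IPO13-/- cells, with log2 fold changes of 0.47 and 0.90 and an interaction of 0.43 (SE 0.06, adjusted p = 7.67e-05 by edgeR). It went from 95.9 and 92.1 to 129 and 131 CPM in IPO13+/+ cells. In IPO13-/- cells it went from 69.3 and 66.4 to 124 and 129 CPM, so that the genotypes lay farther apart untreated than treated. *Klf4*, the remaining factor that the study silenced and a pluripotency factor, was at 447 and 419 CPM in WT-NS, 381 and 383 CPM in WT-ST, 473 and 477 CPM in KO-NS, and 395 and 394 CPM in KO-ST. It fell after H2O2 in both genotypes, by log2 fold changes of -0.18 and -0.27.

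Of the 7 SP1 cofactor genes, 1 was higher and 3 were lower in untreated IPO13-/- cells, against 18.7% and 19.4% of all tested genes, with 1 to 2 higher and 2 to 3 lower under the alternatives. *Hdac1*, a histone deacetylase that binds SP1, was at 346 and 370.3 CPM in WT-NS and 242 and 245 CPM in KO-NS (log2 fold change -0.55, and -0.49 between the genotypes after H2O2), and *Taf4a* had log2 fold changes of 0.29 without treatment and 0.25 after H2O2. Of the 15 measured genes for RREB1 partners and its RAS-MAPK input, 1 rose and 6 fell after H2O2 in IPO13+/+ cells, against 11.5% and 13.8% of all tested genes, and 2 to 7 fell under the alternatives. In IPO13-/- cells 1 rose and 3 fell, against 14.9% and 14.4%, and 1 to 5 fell under the alternatives. *Zeb1*, a zinc finger repressor, fell in both genotypes, with log2 fold changes of -0.44 in IPO13+/+ and -0.63 in IPO13-/- cells. *Smad3*, a partner of RREB1 in TGF-beta signalling, rose in both, by log2 fold changes of 0.59 and 0.37. *Zeb2* was higher in IPO13-/- than in IPO13+/+ cells after H2O2 (1.25), and its higher level without treatment (0.60) was a call lost with limma-voom, with DESeq2 and without any of 6 single libraries, all but the KO-ST libraries.

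The study followed 9 putative targets of NFAT1, SP1, RREB1 and KLF4. They were picked by the study from genes of these libraries that passed its 2-fold rule after H2O2 in IPO13+/+ but not in IPO13-/- cells. Their responses in both genotypes, and any difference between them, are therefore a description. Of these 7 were higher and 1 lower after H2O2 in IPO13+/+ cells, beside 11.5% and 13.8% of all tested genes, and 7 passed the 2-fold rule. In IPO13-/- cells 5 were higher and 1 lower, against 14.9% and 14.4%, and none passed the 2-fold rule, which the choice by the study required. *Il5*, a cytokine of T cells and eosinophils, had at most 1 count per library, under the smallest number told from 0, and no fold is given. Without it the median log2 fold change of the other 8 was 1.03 in IPO13+/+ and 0.87 in IPO13-/- cells. In IPO13+/+ cells *Snai3*, *Neu3*, *Dok1* and *Ppard* had log2 fold changes of 1.03, 1.04, 1.00 and 0.99, and the same genes in IPO13-/- cells had 0.91, 0.90, 0.85 and 0.88.

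*Fosb*, a subunit of the AP-1 factor, was the only one of these 8 targets with an interaction that passed (-1.14, SE 0.17, adjusted p = 0.000159 by edgeR). It was counted 231 and 215 times in WT-NS, 613 and 558 times in WT-ST, 352 and 194 times in KO-NS, and 285 and 311 times in KO-ST. The KO-NS libraries differed, and without KO-NS replicate 1 the interaction was -0.82 and did not pass, while the rise without IPO13, which did not pass at 0.26 with all libraries, then passed at 0.60. That rise also passed with the replicate block (0.27) and in the fit of the 4 libraries compared (0.26). *Stox1* was counted only 9 and 11 times in WT-NS, 31 and 30 times in WT-ST, 5 and 9 times in KO-NS, and 16 and 10 times in KO-ST, with log2 fold changes of 1.60 (SE 0.36) and 1.00 (SE 0.48). *Rasd1* had log2 fold changes of 1.29 (SE 0.18) and 0.66 (SE 0.19), the second lost with DESeq2, without KO-NS replicate 2 (0.54) and without KO-ST replicate 1 (0.53). *Lef1*, a factor of Wnt signalling, fell in both genotypes, by log2 fold changes of -1.07 and -0.88, and was higher in untreated IPO13-/- cells (1.04). *Cyp2s1*, the control of the study, had log2 fold changes of -1.10 and -1.09.

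**Figure D5:**
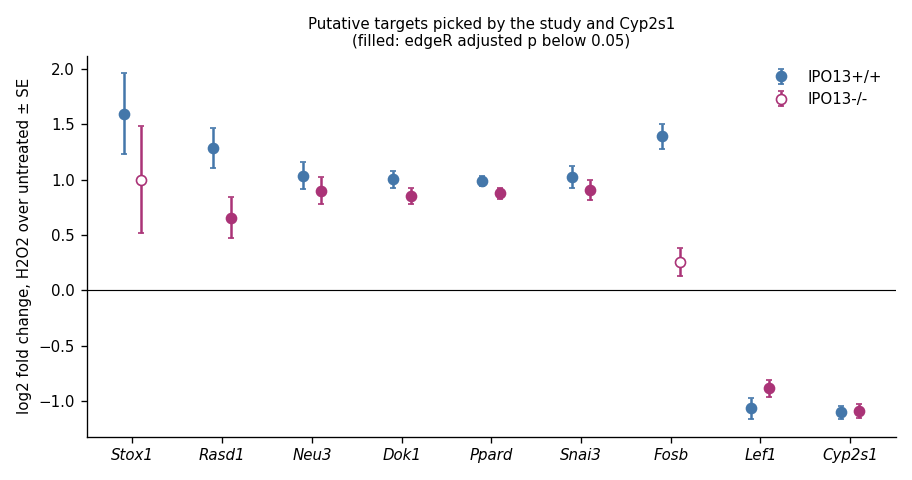
Log2 fold change after H2O2 with its SE (y axis) for 8 putative targets picked by the study and the control gene Cyp2s1 (x axis), in IPO13+/+ and IPO13-/- cells, with filled symbols for an edgeR adjusted p below 0.05. Fosb separates the genotypes most, at 1.39 and 0.26, and Cyp2s1 is alike in both, at -1.10 and -1.09.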

How the data were processed

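RNA-seq counts of 8 libraries were analysed for 9 genes chosen by name, and the genes, lists and tests were chosen with earlier results of these data known. Per the labels, TruSeq mRNA libraries were read in pairs on an Illumina HiSeq, and the submitters' processing notes name bcl2fastq, STAR 2.3.1, HTSeq, limma and the build mm10. The gene annotation and the strand setting are not given in the sources used here. The authors deposited raw counts per gene symbol, and beside them CPM values, each count divided by the library total, which were checked against the counts and not tested.

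The 19424 genes counted at least once in some library were scaled by TMM factors and fitted in edgeR 4.0.16 (R 4.3.3) with the quasi-likelihood test, in a single model with a coefficient per group. Benjamini-Hochberg adjustment ran over every tested gene, a gene was called below an adjusted p of 0.05, and the stricter rule of the study, a change of at least 2-fold as well, was applied separately. SEs are the size of the log2 fold change over the root of its F statistic. Alternatives were limma-voom (limma 3.58.1), DESeq2 1.42.0, relative log expression factors, library totals, filterByExpr (15191 genes), at least 10 counts (17081 genes), the replicate number as a block, fits of the 4 libraries compared, and leaving out each library, where a lone library is taken to vary like the other groups. The procedure was tested on simulated data.

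All 9 genes are named. Of each pathway list, the genes past the 2-fold rule and the 2 with the largest fold change among called genes with at least 1 CPM are named. The targets and control of the study are also named, and for *Sp1*, *Nfatc2* and *Rreb1* the 3 genes most correlated with each. Genes beside *Nfatc4* and *Rcan1* and *Klf4* were named after their values were seen. Positions and lengths are from GENCODE M21 on GRCm38, the assembly that mm10 names. The floor of 3 counts covers counting error only, while SEs and SDs include the spread between the libraries.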

Additional observations from a re-analysis of the deposited data

Results flagged for a closer look

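For 3 of the genes named beside the factors, the response to H2O2 differed between the genotypes by the test of the difference itself. The interaction was -1.14 on the log2 scale for *Fosb*, -0.80 for *Hspa1b* and 0.43 for *Klf6*, so that *Fosb* rose less and *Klf6* more in IPO13-/- cells, while *Hspa1b* rose in IPO13+/+ cells and fell in IPO13-/- cells. The interactions of *Hspa1b* and *Klf6* passed under all alternatives run, and that of *Fosb* under all but the fit without KO-NS replicate 1 (-0.82). *Fosb* was picked by the study for a response in IPO13+/+ and not in IPO13-/- cells of these libraries, so its interaction is a description. *Hspa1b* and *Klf6* were named for the size of their fold changes in these same libraries, so their interactions are descriptions as well. None of the 9 factor genes had such a difference. Their groups of 2 libraries are too small for a test of single outlying libraries.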

How the results depend on the processing

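The number of the 9 genes called stayed within 1.5 times its value under all alternatives that keep every library. As single libraries were left out, 3 to 7 genes were called between the genotypes without treatment, against 5 in all libraries, and 3 to 7 after H2O2 in IPO13+/+ cells, against 6. The lowest counts came without KO-NS replicate 1 and without WT-ST replicate 1, and the highest without WT-NS replicate 2. The cause was not tested. In the order of levels averaged over all libraries, 2 genes changed rank with the longest transcript as length, and within KO-NS and KO-ST *Sp3* then also stood above *Sp1*. No called value changed sign. Of the fold changes of the 9 genes under the alternatives, 666 kept their side of the threshold, 36 lost a call and 9 gained one. Of those of the other named genes, 2821 kept their side, 83 lost a call and 19 gained one. Of the counts of called genes in the pathway lists and among the targets of the study, 157 moved by more than 1.5 times and 1265 did not. The marker lists were not put through the alternatives.

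Libraries of the same number deviated together among WT-NS, KO-NS and KO-ST (correlations of 0.352 to 0.642), but not with WT-ST (-0.091 to -0.001). The numbers are therefore not taken to pair the libraries, and a pairing that leaves out WT-ST was not tested. With the number as a replicate block, 5, 6, 6 and 4 genes were called in untreated cells between the genotypes, in IPO13+/+ and IPO13-/- cells after H2O2, and between the genotypes after H2O2, and 0 in the interaction. The gain was *Sp4*. Over all genes the interaction called 527 genes, against 255 with limma-voom, 294 with DESeq2, 1291 with the block and 73 to 1157 without single libraries. After H2O2 4908 genes were called in IPO13+/+ cells, against 3163 with the 4 libraries compared and 2952 and 3135 without the first and the second WT-ST library, and 5704 in IPO13-/- cells, against 3204 without KO-NS replicate 1 and 3788 without KO-ST replicate 2. *Nfatc1* rested on 125 to 210 counts per library, and with 2 libraries per group a difference that missed the threshold is not shown to be absent. The alternatives for genes outside the 9 were added after the data were seen.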

Other observations

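The gap between the libraries of a group was not alike for all 9 genes. The log2 ratio of replicate 1 to replicate 2 was 0.23 for *Sp1*, 0.25 for *Nfat5*, 0.19 for *Nfatc3* and 0.19 for *Rreb1* in WT-NS, while in WT-ST the same genes had 0.01, -0.06, -0.02 and 0.04. For *Nfat5* it was also 0.18 in KO-NS and 0.23 in KO-ST. *Sp3* stayed between -0.03 and 0.04 in all 4 groups.

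Of the 10 targets and control of the study, 7 had a RefSeq promoter window, 10 windows in all. GGGCGG was found in windows of 6 of the 7 genes, GGAAAA in 3 and CCACCCC in 3. Counted by window, these motifs were in 8, 4 and 5 of the 10, beside 35.7%, 23.4% and 15.1% of all mouse windows. *Lef1* has 4 of the 10 windows, of which the first and second overlap, so the windows are not independent. A gene with several windows has more chances of a match, and no share per gene was computed for all mouse genes. No excess is therefore claimed for either count.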
